A study of Mus musculus with 6 samples.

Results

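The integrin and laminin genes of the mouse myoblast line C2C12 were followed through muscle differentiation and, apart from that, in cells carrying a hairpin against Rp58. They were taken by symbol from the platform annotation, as all alpha integrin, beta integrin and laminin chain genes there whose probe sets carry 1 symbol, and each gene was read from the probe set that was brightest on average over the 6 arrays. This gave 34 of the 18194 genes on the array: 16 alpha integrins, 8 beta integrins, 5 laminin alpha, 3 laminin beta and 2 laminin gamma chains. Of these, 25 reached the filter of 7.95 log2 units, the median of all values, on at least 1 array, as did 13242 of all genes. The filter is no detection call: the T cell gene Cd3e, for one, read 9.75 to 10.29 on the time-course arrays.

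C2C12 cells leave the cell cycle and fuse into multinucleated myotubes when serum is lowered. Parental cells were sampled in growth medium with 10% fetal bovine serum, and, once confluent, in medium with 2% horse serum, at day 0 (just after the change), day 2 and day 4. Further cultures were sampled at day 0, namely stable shRp58 transfectants and control transfectants, made by lipofection and selected in 500 ug/ml G418 for 2 weeks. The labels call the control a LacZ vector in 1 place and a control hairpin in another, and whether the lines were pools or clones is not given in the sources used here. Each of the 6 groups had 1 array, so no difference below has a replicate error or a p-value, and precision is limited by the number of arrays.

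Integrins are transmembrane receptors made of an alpha and a beta subunit. They bind matrix or cell surface ligands outside the cell and, through adaptors such as talin, the actin cytoskeleton inside. Laminins are trimers of an alpha, a beta and a gamma chain and form the sheet of the basement membrane. In skeletal muscle the pair of Itga7 and Itgb1 holds the fibre to laminins that contain Lama2, and loss of LAMA2 in humans causes a congenital muscular dystrophy.

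The values are log2 RMA values. The median probe set read 8.26 or 8.27 along the time course and 7.15 in either stable line, so differences were read only within each set. The target, Zbtb18 (Rp58), read 11.16 in shRp58 cells and 11.69 in control cells, a difference of -0.53. The 10 listed muscle markers all reached the filter. Their summed linear level was 27587 in growth medium and 70357, 142505 and 168744 at days 0, 2 and 4. Not every marker rose with this sum. For day 4 minus day 0, 6 of the 10 passed 2-fold upward (all genes 3.83%) and 1, Myf5, downward (-1.29, all genes 5.66%). Cdh15 gave -0.69 for the same comparison. In the stable lines the sum over the markers was 47022 in shRp58 cells and 76697 in control cells. For shRp58 minus control, 4 of the 10 (Myh3, Ckm, Tnnt3 and Mymk) passed 2-fold downward, where 0.619% of all genes did. The part of this difference in muscle state in the differences between the stable lines below was not tested. In such cultures fewer cells of a type and less RNA per cell cannot be told apart.

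Across the time course the members moved in different directions. Against growth medium, day 0 had 20 of 25 members above 0 (80.0%, all genes 61.2%), a median of 0.25 (all genes 0.10) and 1 at least 2-fold higher (all genes 2.91%) with 0 lower (all genes 0.317%). Quantile normalization set the median of all genes at -0.03 for this step, and relative to all genes the median of the members was 0.15 as deposited and 0.25 after it. Between day 2 and day 0 the median was 0.00 (all genes -0.01), with 3 members at least 2-fold higher (all genes 2.67%) and 1 lower (all genes 2.96%). For day 4 minus day 0 the median was -0.09 (all genes -0.04), with 1 member 2-fold higher (all genes 3.83%) and 2 lower (all genes 5.66%). The median for day 4 minus day 2 was -0.16 (all genes -0.03), with 1 member higher and 3 lower by that fold (all genes 0.808% in each direction). Consecutive comparisons share an array and are not independent of each other. Over the 4 arrays as a whole, 12 of 25 members spanned at least 2-fold between their lowest and highest value, where 17.9% of all genes did. Among the 12 are Itgb2, which reached the filter only at day 2, and Lama4, which reached it only at days 2 and 4. Their low ends lay below the filter, so these spans have no exact size. This span was added after values had been seen and was not recounted under other scalings or probe sets.

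**Figure D1:**
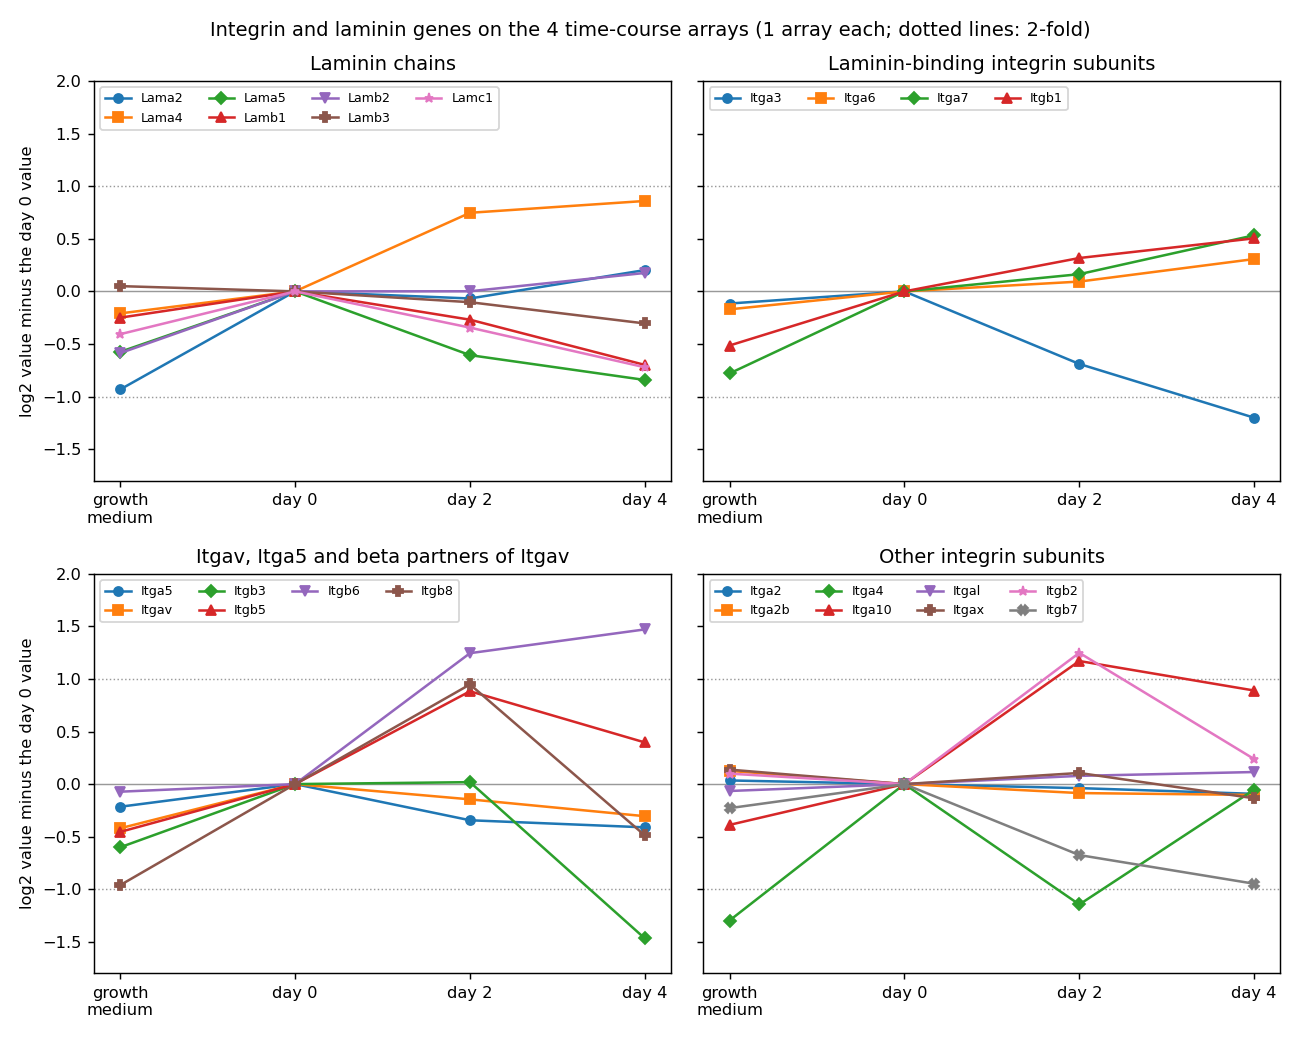
Log2 value minus the day 0 value (vertical axis) of the 25 genes in growth medium and at days 0, 2 and 4 (horizontal axis), 1 line per gene and 1 array per point, with dotted lines at 2-fold. Lama5, Lamb1 and Lamc1 share a course that is highest at day 0 and lowest at day 4, Itgb6 lies 1.47 above its day 0 value at day 4, and Itgb3 lies 1.47 below.

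Of the laminin chains, Lama5, Lamb1 and Lamc1 were highest at day 0, and Lama2, Lamb2 and Lama4 at day 4. Lama5, the alpha chain of embryonic and many adult basement membranes, read 11.34 in growth medium and 11.92, 11.31 and 11.08 at days 0, 2 and 4. Lamb1, the widespread beta chain, read 12.01, 12.26, 11.995 and 11.57 on the same arrays in that order. Its 0.25 between day 0 and growth medium became 0.04 after quantile and 0.03 after loess normalization. Lamc1, the gamma chain of most laminins, read 10.82, 11.22, 10.88 and 10.50. For these 3 chains day 4 lay below day 0 with differences of -0.84, -0.70 and -0.72 log2 units, none of them 2-fold. The other probe sets that reached the filter gave day 4 minus day 0 values of the same sign, from -0.86 to -0.70 for the 3 of Lamb1 and from -0.72 to -0.45 for the 2 of Lamc1.

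The chains of muscle and synaptic laminins had their lowest value in growth medium. Lama2, the alpha chain of the muscle fibre basement membrane, read 9.46 in growth medium and 10.39, 10.32 and 10.59 at days 0, 2 and 4. Most of its span of 1.14 lay before day 0, where the difference from growth medium was 0.93, just short of 2-fold. That difference was 0.78 after quantile and 0.76 after loess normalization. Lamb2, the beta chain concentrated at the neuromuscular synapse, read 8.99, 9.57, 9.57 and 9.75 in the same order, with 0.59 between day 0 and growth medium and 0.00 between day 2 and day 0. Lama4, an alpha chain of vessel, nerve and synaptic basement membranes, read 7.20, 7.41, 8.15 and 8.27, so it reached the filter only at days 2 and 4. Its day 4 minus day 0 difference was 0.86, but its second probe set stayed below the filter with 0.07. Lamb3, a chain of the epithelial anchoring laminin, read 9.05, 8.998, 8.90 and 8.69 and was thus lowest at day 4, by -0.31 against day 0. Lama1 and Lama3, alpha chains of embryonic and epithelial laminins, and Lamc3 did not reach the filter, with highest values of 6.36, 7.21 and 7.84.

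Among laminin-binding integrins, Itga7 and Itgb1 were highest at day 4 and Itga3 was lowest there. Itga7, the laminin receptor subunit of muscle fibres, read 12.12 in growth medium and 12.90, 13.06 and 13.43 at days 0, 2 and 4. Its span was 1.31, of which 0.78 lay between growth medium and day 0 (0.59 after quantile and 0.56 after loess normalization). Itgb1, the beta subunit shared by most matrix-binding alpha subunits, read 12.16, 12.68, 13.00 and 13.18, a span of 1.02. Each later array thus gave a higher value for both genes. For Itgb1 the step to day 0 was 0.51, or 0.33 after quantile and 0.29 after loess normalization. Itga6, a laminin receptor subunit of myoblasts and many epithelia, read 11.85, 12.02, 12.12 and 12.33, with both of its probe sets above day 0 at day 4 (0.31 and 0.24); the 0.17 between day 0 and growth medium turned to -0.04 after quantile normalization and -0.05 after loess normalization. Itga3, which binds laminins that contain Lama5, read 11.67, 11.79, 11.10 and 10.59. Day 4 minus day 0 was -1.20 for Itga3, and its other 2 probe sets gave -0.96 and -0.47, short of 2-fold. The probe set with -0.47 was lowest at day 2 and not at day 4, with 8.18 and 8.26. Itgb4, the partner of Itga6 in epithelial hemidesmosomes, did not reach the filter (highest 7.82).

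The alpha subunit Itgav can pair with Itgb1, Itgb3, Itgb5, Itgb6 or Itgb8, and these partners took separate courses while Itgav itself spanned 0.42 on its brightest probe set. Itgav read 12.16 in growth medium and 12.58, 12.43 and 12.27 at days 0, 2 and 4. Its second probe set at the filter gave -0.55 in place of -0.15 for day 2 minus day 0. For day 4 minus day 0 that probe set gave -0.61 in place of -0.31. Itgb6, an epithelial subunit whose receptor releases active TGF-beta from its latent form, read 8.13, 8.20, 9.45 and 9.67. Its differences from day 0 were 1.24 at day 2 and 1.47 at day 4, and the second probe set gave 0.95 and 1.60. Itgb8, which also takes part in TGF-beta activation, read 8.92, 9.88, 10.83 and 9.40. Day 0 minus growth medium was 0.96 and day 2 minus day 0 was 0.95, each short of 2-fold, and day 4 minus day 2 was -1.44, so its highest value was at day 2.

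Itgb5, a vitronectin receptor subunit, was likewise highest at day 2, with 11.94 in growth medium and 12.40, 13.28 and 12.79 at days 0, 2 and 4. Day 2 minus day 0 was 0.88, and its 4 probe sets ranged from 0.86 to 1.06; quantile and loess normalization gave 1.02 and 1.004. Itgb3, the beta subunit of the classical vitronectin receptor and of the platelet fibrinogen receptor, held about the same value at days 0 and 2 and was lower at day 4. It read 8.96, 9.56, 9.58 and 8.10, and day 4 minus day 2 was -1.49; its second probe set, which stayed below the filter, gave -0.30. Itga5, the fibronectin receptor subunit that pairs with Itgb1, read 10.59, 10.81, 10.46 and 10.39, but its second probe set gave 0.07 in place of -0.41 for day 4 minus day 0.

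Itga4, which pairs with Itgb1 or Itgb7 and binds Vcam1 and fibronectin, was the only member past 2-fold at all 3 consecutive steps. It read 8.65 in growth medium and 9.94, 8.80 and 9.89 at days 0, 2 and 4, so growth medium and day 2 were low and day 0 and day 4 high. The steps were 1.30 for day 0 minus growth medium, -1.14 for day 2 minus day 0 and 1.09 for day 4 minus day 2. Its second probe set at the filter gave 1.76, -1.48 and 0.67, and the median over all 5 of its probe sets gave 0.65, -0.83 and 0.56. Itgb7, a subunit known from lymphocytes, read 9.22, 9.45, 8.78 and 8.50, with a day 4 minus day 0 difference of -0.95. Vcam1 read 10.96, 11.69, 12.23 and 11.83, highest at day 2 where Itga4 was low.

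Among the remaining subunits, the collagen receptor subunit Itga10, known from cartilage, read 8.50, 8.89, 10.06 and 9.78. Its difference of 1.17 for day 2 minus day 0 was past 2-fold and rested on 1 probe set. Itgb2, the beta subunit of leukocyte integrins, read 7.74, 7.64, 8.89 and 7.88, so it reached the filter at day 2 alone, with 1.25 for day 2 minus day 0 and -1.01 for day 4 minus day 2 (-0.99, short of 2-fold, after centring the arrays). Its leukocyte partners did not share that step: Itgal, Itgax and Itgam differed by 0.08, 0.11 and 0.39 between day 2 and day 0, and Itgam stayed below the filter. Of 7 leukocyte markers found, 0 were 2-fold apart at that step (all genes 2.67% higher, 2.96% lower). Their summed linear level ranged from 2900 at day 0 to 3878 in growth medium, with 3293 at day 2. On every time-course array 5 of the 7 reached the filter: at day 2 Cd3e read 9.87, Csf1r 9.99, Lyz2 8.73, Cd52 8.51 and Fcgr1 8.44. Ptprc (5.54 at day 2), the pan-leukocyte marker, and Cd68 (7.31) lay below it on every array. Itga2, a collagen receptor subunit, Itga2b, the platelet fibrinogen receptor subunit, and Itgal and Itgax spanned only 0.13 to 0.27 over the 4 arrays.

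Promoter windows were searched because muscle regulators and Rp58 act through short sites of the E-box type. RefSeq windows (GRCm38.p6), which run from 250 bases before the gene start to 50 after it, were found for 22 of the 34 genes, 25 windows in all. Of the 7 genes 2-fold apart along the time course, 5 had a window, 7 windows in all. The E-box, CANNTG, has the same pattern on both strands and is in capitals below, where windows of the TGF-beta activating subunits and of Itga4 are given 5′ to 3′ along the gene.
Itgb6, upstream window, chr2:60722554-60722853, minus strand: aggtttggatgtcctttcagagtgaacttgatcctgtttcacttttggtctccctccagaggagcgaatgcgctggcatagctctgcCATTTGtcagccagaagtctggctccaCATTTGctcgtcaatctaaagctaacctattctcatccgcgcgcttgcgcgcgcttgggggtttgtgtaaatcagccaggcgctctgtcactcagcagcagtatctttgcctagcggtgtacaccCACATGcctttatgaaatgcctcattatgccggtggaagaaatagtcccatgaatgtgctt
Itgb6, downstream window, chr2:60673644-60673943, minus strand: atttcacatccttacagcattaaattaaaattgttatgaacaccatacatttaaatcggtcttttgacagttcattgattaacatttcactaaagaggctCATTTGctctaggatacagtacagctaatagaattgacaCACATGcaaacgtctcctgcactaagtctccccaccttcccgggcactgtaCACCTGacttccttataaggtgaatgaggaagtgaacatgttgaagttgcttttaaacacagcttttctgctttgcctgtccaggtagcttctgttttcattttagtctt
Itgb8, chr12:119238227-119238526, minus strand: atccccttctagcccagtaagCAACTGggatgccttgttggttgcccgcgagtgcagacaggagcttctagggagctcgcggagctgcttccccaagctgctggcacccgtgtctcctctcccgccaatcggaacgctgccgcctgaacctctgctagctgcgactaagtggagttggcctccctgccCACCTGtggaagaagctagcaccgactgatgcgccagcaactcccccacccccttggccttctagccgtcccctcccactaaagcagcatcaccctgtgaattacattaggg
Itga4, chr2:79255176-79255475, plus strand: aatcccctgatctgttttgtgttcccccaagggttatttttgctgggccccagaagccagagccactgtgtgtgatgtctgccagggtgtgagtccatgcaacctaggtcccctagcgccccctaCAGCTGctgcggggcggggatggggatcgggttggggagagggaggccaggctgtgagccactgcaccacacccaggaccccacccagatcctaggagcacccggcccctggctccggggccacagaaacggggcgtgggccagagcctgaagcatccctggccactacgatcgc
The Itgb6 windows hold 3 E-boxes each, that of Itgb8 holds 2, and that of Itga4 holds 1, of the form CAGCTG that is bound by the MyoD family. Of the genes 2-fold apart whose windows are not printed, Itga3 has 1 E-box in each of its 2 windows and Itga10 has 0 in its window. E-boxes are common: 72.3% of the 32851 windows of this length held at least 1, and 84.0% of the member windows did. CAGCTG, searched on both strands and itself an E-box, was in 16.3% of all windows, in 8 of the 25 and in 1 of the 7 windows of the genes 2-fold apart.

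ACATCTG, the core of the site bound by Rp58, overlaps the E-box CATCTG and was found on either strand in 4.43% of all windows and in 3 of 25 member windows, those of Itga1, Itga5 and Lamb2. The stretches of the genes that reached the filter follow, with ACATCTG in capitals, since these carry the matches to the site of the targeted factor.
Itga5, chr15:103366841-103366869, minus strand: gtttacgttgtACATCTGgaaaggagggg
Lamb2, chr9:108479676-108479704, plus strand: ttgctaagtacACATCTGctaaataaact
The match lies 67 bases before the start of Itga5 and 175 bases before that of Lamb2. A match describes the letters in the window and not binding.

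**Figure D2:**
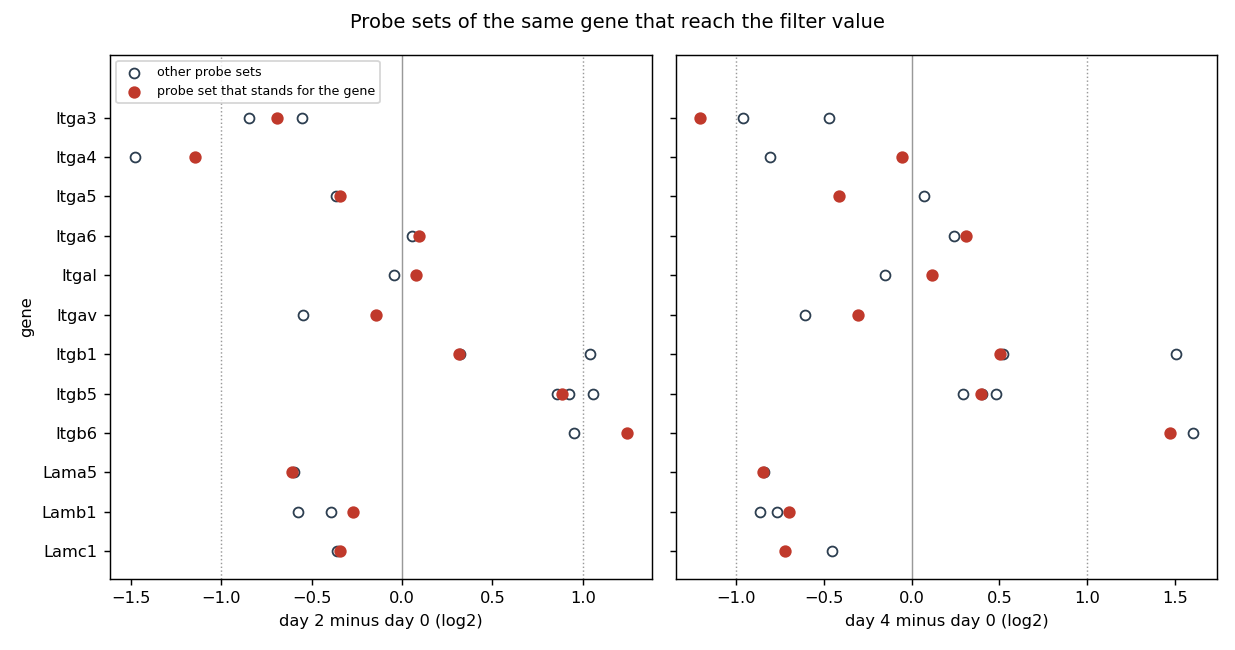
Day 2 minus day 0 (left) and day 4 minus day 0 (right), in log2 units on the horizontal axes, for each probe set that reached the filter in the 12 genes with at least 2 such probe sets (rows). Filled points stand for the gene and open points are its other probe sets; all had 1 sign in 11 genes at day 2 and in 10 at day 4, the exceptions being Itgal on both and Itga5 at day 4.

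In the stable lines the question is which members differed between shRp58 and control cells at day 0. None of the 25 was 2-fold apart in either direction (all genes 0.0529% higher, 0.619% lower), 16 lay below 0 (64.0%, all genes 51.3%), and the median was -0.12 against -0.01 for all genes. Itgb6 read 6.16 in shRp58 cells and 6.91 in control cells, a difference of -0.74 that lay below the filter and below the median of the set on both arrays; its second probe set gave -0.51. Itgb8 read 7.60 in shRp58 cells and 8.28 in control cells, a difference of -0.67 with the shRp58 value below the filter. Both Itgb8 values lay above the median of the set, 7.15. Itgb6 and Itgb8 were the only 2 members at least 1.5-fold lower (all genes 2.25%), and 0 were 1.5-fold higher (all genes 1.43%). Itgb6 rests on 2 values below the filter and Itgb8 on 1. The central 95% of all genes ran from -0.55 to 0.46 between these arrays, a range that describes many genes and gives no error for any of them.

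Several matrix receptors of myoblasts lay above the filter on both arrays and had differences below 0. Itga5 read 9.80 in shRp58 cells and 10.31 in control cells (-0.51), and its second probe set gave -0.55. Itga6 read 11.27 in shRp58 cells and 11.72 in control cells, and both of its probe sets gave -0.45. Itgb5 read 11.13 in shRp58 cells and 11.44 in control cells (-0.31). Itga7 stood at 12.87 in shRp58 cells and 13.16 in control cells (-0.29), while its partner Itgb1 stood at 12.13 in shRp58 cells and 12.26 in control cells (-0.13).

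Among the laminin chains, Lama2 and Lamb2 gave the most negative values. Lama2 read 9.78 in shRp58 cells and 10.06 in control cells (-0.29), and Lamb2 read 8.71 in shRp58 cells and 8.94 in control cells (-0.23). Lama5, Lamb1 and Lamc1, the chains with their highest value at day 0, differed by -0.01, 0.01 and 0.01, and the second probe set of Lamc1 gave -0.13. Lama4 differed by -0.04 and Lamb3 by -0.15, both below the filter on these arrays. Above 0 lay Itgb7, at 9.26 in shRp58 cells and 9.05 in control cells (0.21), and Itgb2 (0.17), Itga2 (0.11), Itga4 (0.10) and Itgal (0.08) among others, of which Itgb2, Itga2 and Itgal lay below the filter on both arrays and a second probe set of Itga4 gave -0.08.

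**Figure D3:**
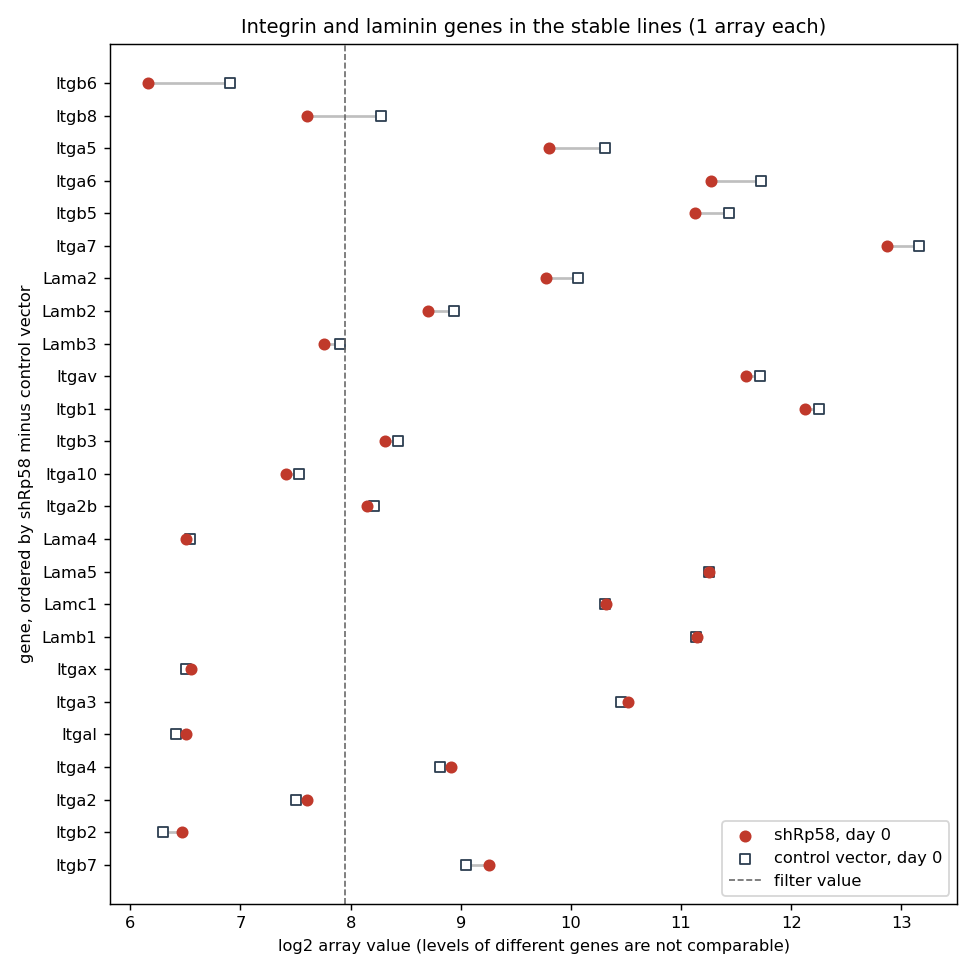
Log2 values of the 25 genes (rows, ordered by their difference) in shRp58 cells (filled circles) and control cells (open squares) at day 0, with the filter of 7.95 as a dashed line and 1 array per line. The upper rows hold Itgb6 (-0.74), below the filter on both arrays, and Itgb8 (-0.67), below it in shRp58 cells. Taken by the filter, neither gap has an exact size, though Itgb8 lay above the median of the stable-line set (7.15) on both arrays. The points of Lama5, Lamb1 and Lamc1 coincide.

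The stable-line difference shares no array with the time course, so both can be set side by side. Of the 13 members above 0 for day 2 minus day 0, 10 lay below 0 for shRp58 minus control, and of the 12 below 0, 6 lay above. The same tally over all genes was not made, so these counts have no share to be read against. Without regard to the time course, 51.3% of all genes lay below 0 for shRp58 minus control and 47.5% above. Some of these signs belong to differences near 0 and changed under another scaling or choice of probe set. Among them were Lamb2 (0.0012) and Itgb3 (0.018) for day 2 minus day 0, and Lama5 (-0.0086) and Lamc1 (0.0085) for shRp58 minus control. Across the 25 members Pearson r between day 2 minus day 0 and shRp58 minus control was -0.43, and Spearman rho was -0.37. Over all 13242 genes r was -0.67, so an inverse relation was not particular to the members. Genes of 1 array share its labelling and scale and are not independent. With day 4 minus day 0 the members gave r = -0.37 and all genes r = -0.64. Itga5 was below 0 on both, at -0.34 for day 2 minus day 0 and -0.51 for shRp58 minus control, and Itgb2 was above 0 on both, at 1.25 and 0.17.

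**Figure D4:**
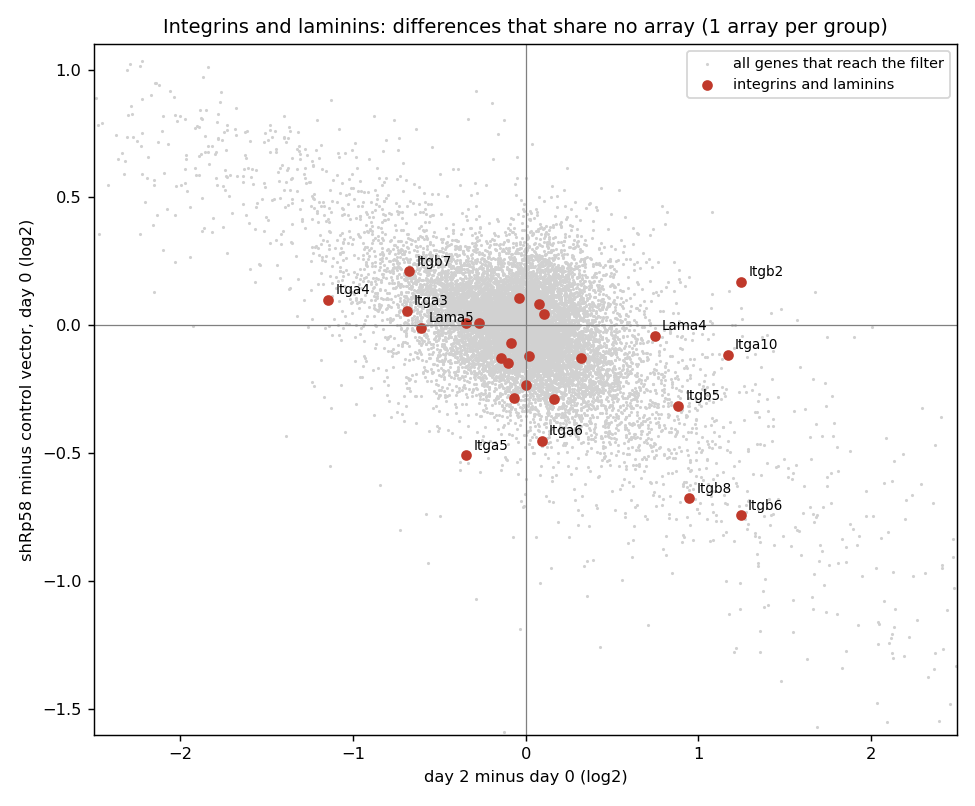
Day 2 minus day 0 (horizontal axis) against shRp58 minus control at day 0 (vertical axis), both in log2 units, for all genes that reached the filter (grey, 68 beyond the axes) and the 25 integrins and laminins (red). Itgb6, Itgb8 and Itgb5 lie at the lower right, Itga3, Itga4 and Itgb7 at the upper left, and Itga5 at the lower left.

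Most adaptors that couple integrins to actin stayed within 2-fold. Of 22 listed adaptors found, 21 reached the filter, with a median of -0.19 for day 2 minus day 0 (all genes -0.01). At that step 1 was 2-fold higher (all genes 2.67%) and 1 lower (all genes 2.96%). Itgb1bp2 (melusin), a muscle protein that binds the tail of Itgb1, read 8.07 in growth medium and 9.58, 12.57 and 13.29 at days 0, 2 and 4. In the stable lines it read 9.09 in shRp58 cells and 10.58 in control cells, a difference of -1.49. It was the only adaptor past 2-fold there (all genes 0.0529% higher, 0.619% lower). Flna, the filamin of non-muscle cells, read 13.32, 13.56, 12.56 and 12.41 along the time course, with -1.16 for day 4 minus day 0. The muscle filamin Flnc differed by 0.89 at that step, talin Tln1 by 0.09 and Tln2 by -0.62, vinculin Vcl by -0.03 and the kinase Ilk by -0.37.

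Other basement membrane proteins and integrin ligands included genes far apart in both directions. Of 17 kept, 4 were at least 2-fold higher for day 4 minus day 0 (all genes 3.83%) and 2 lower (all genes 5.66%). The median of the 17 was 0.14 (all genes -0.04). Higher were Postn, an Itgav ligand (4.32), Ntn4, a laminin-related netrin (1.14), Npnt, a ligand of Itga8 (1.13), and the fusion-associated protease Adam12 (1.02). Lower were the matrix protein tenascin Tnc (-1.83) and Nid1 (-1.43). Nid1 and Nid2 link laminin to the collagen network and took separate courses. Nid1 read 13.17 in growth medium and 13.40, 13.45 and 11.98 at days 0, 2 and 4, whereas Nid2 read 9.95, 10.47, 10.81 and 11.22. In the stable lines Nid2 stood at 8.77 in shRp58 cells and 9.71 in control cells (-0.94). Nid1 differed by -0.11 there and fibronectin Fn1 by -0.14. Of the 17, 0 were 2-fold apart (all genes 0.0529% higher, 0.619% lower). Edil3, another Itgav ligand, was 1.91 higher at day 0 than in growth medium, where it lay below the filter.

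Laminin receptors outside the integrin family and membrane proteins that associate with integrins were read as a further list. Of 12 kept, 3 were at least 2-fold higher for day 4 minus day 0 (all genes 3.83%) and 1 lower (all genes 5.66%). The median of the 12 was 0.19 (all genes -0.04). Higher were Sgca, a sarcoglycan (1.78), Slc3a2, which binds beta integrin tails (1.20), and Bcam, a receptor of Lama5 (1.19). The urokinase receptor Plaur was lower (-2.63). Dystroglycan (Dag1), the main non-integrin receptor of Lama2, read 12.29 in growth medium and 12.87, 13.53 and 13.74 at days 0, 2 and 4. It read 12.06 in shRp58 cells and 12.60 in control cells, a difference of -0.54. None of the 12 was 2-fold apart between the stable lines (all genes 0.0529% higher, 0.619% lower), where Bcam gave -0.78 and Sgca -0.67.

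The other members stayed below the filter: Itga1, Itga8, Itga9, Itgae, Itgam, Itgb4, Lama1, Lama3 and Lamc3, with highest values between 6.36 and 7.84 and differences between -0.54 and 0.42 in all 5 comparisons. Markers of other cell types were set beside these results. Of 8 fibroblast markers 6 reached the filter, and Thy1 and Tcf21 did not on any array. For day 4 minus day 0, Lum (2.41), Dpt (1.01) and Col1a1 (1.01) were at least 2-fold higher (all genes 3.83%). At that step Col3a1 differed by 0.26, Pdgfra by -0.12 and Col1a2 by -0.31. The summed linear level of the 8 was 26020 in growth medium and 39452, 41121 and 43709 at days 0, 2 and 4. Of 6 epithelial markers 4 reached the filter, and 0 of those were 2-fold apart at days 2 or 4 against day 0. Of all genes, 2.67% were higher and 2.96% lower at day 2, and 3.83% higher and 5.66% lower at day 4. Cdh1, below the filter throughout, differed by 1.88 at day 2, and Krt14 gave -1.35 for day 0 minus growth medium. Endothelial markers reached the filter for 1 of 6 (Kdr), with Pecam1 and Cdh5 below it, and platelet markers for 1 of 3 (Gp9). Neither Kdr nor Gp9 was 2-fold apart in any comparison, where at most 5.66% of all genes were in 1 direction. Counts over so few genes do not describe these cell types. The part of these cell types in the members' differences was not tested.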

How the data were processed

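RNA of 6 C2C12 cultures was hybridised to Affymetrix mouse whole-genome arrays, 10 ug of cRNA each, and the authors deposited log2 values made with the RMA algorithm, per the labels' design text; the software is not named. The table holds 45101 probe sets, of which the platform annotation gives 1 gene for 34958, several for 932 and none listed for 9211. Only probe sets with 1 gene were named, and the symbols of all 34 members matched RefSeq by Entrez ID. Groups came from sample titles. From the deposited log2 values, differences between single arrays were taken within the time course and within the stable lines, and a fold of 2 in either direction was counted; no test was possible. Values below the filter have no exact size or order. Alternatives were the filter, centring, quantile and cyclic loess normalization, the choice of probe set and a 1.5-fold count. The 3 pathway lists and 6 marker lists were used. Named with all time-course values were the members 2-fold apart in any comparison and the main muscle and myoblast forms. For the stable lines the 5 largest and 5 smallest differences were named, not all of them with array values. List genes were named where 2-fold apart. Vcam1, Nid2, Flnc, Tln1, Tln2, Vcl, Ilk, Fn1, Dag1 and the cell type markers were named after their values were seen. Members and lists were chosen with earlier results of these data known. Promoter windows are those of RefSeq, GRCm38.p6; integrin tail sequences were not used here. Software was R 4.3.3 with limma 3.58.1, and Python 3.11.15 with numpy 2.4.6, pandas 2.3.3 and matplotlib 3.10.9.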

Additional observations from a re-analysis of the deposited data

How the results depend on the processing

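No paired analysis was possible because each group had 1 array, and leaving out a replicate was not possible for the same reason. Of the member counts and medians in the 5 comparisons, all 15 kept within 1.5 times (counts) or 0.1 log2 (medians) after centring, after loess normalization and with the probe set brightest on the time-course arrays. Single members held less well. Of their 125 differences, 29 that were short of 2-fold moved by at least 0.1 log2 after loess normalization and 21 after quantile normalization. After quantile normalization 5 members were 2-fold higher for day 2 minus day 0 (all genes 412 of 12555), in place of 3, as Itgb5 and Itgb8 joined. With the median over all probe sets of a gene, 0 members were 2-fold higher for day 0 minus growth medium (all genes 292 of 13242). At that setting 0 were lower for day 2 minus day 0 (all genes 320) and 0 lower for day 4 minus day 0 (all genes 591). For day 4 minus day 2, 0 were higher (all genes 100). Itga4, Itga3 and Itgb3 missed 2-fold in these counts, and the median for day 4 minus day 2 was -0.058. With the filter set within the compared arrays the median for day 0 minus growth medium was 0.41, and without a filter the median for day 4 minus day 0 was 0.0097. At 1.5-fold, 6 members were higher for day 0 minus growth medium (all genes 1443 of 13242). For day 2 minus day 0, 6 were higher (all genes 885) and 4 lower (all genes 1105). For day 4 minus day 0, 3 were higher (all genes 1107) and 6 lower (all genes 1852). With shRp58, 2 were lower (all genes 298). No difference past 2-fold changed sign under these scalings or probe set choices; Itgb2 missed 2-fold for day 4 minus day 2 after centring (-0.99). Signs of differences near 0 did change, among them Itga3 for day 0 minus growth medium (0.12, -0.093 after quantile normalization), Itga4 for day 4 minus day 0 (-0.053, 0.055 after quantile normalization) and Itgav for shRp58 minus control (-0.13, 0.013 with the median over probe sets). Of the 25 members, 8 lay below the filter on both stable-line arrays: Itga10, Itga2, Itgal, Itgax, Itgb2, Itgb6, Lama4 and Lamb3. Of these, Itgal, Itgax, Itgb2, Itgb6 and Lama4 also lay below the median of the stable-line set (7.15) on both.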

Other observations

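Itgb1 was read by 6 probe sets, and they did not give 1 size of difference. Its 2 brightest gave 0.50 and 0.52 for day 4 minus day 0. Another, whose name marks probes that can match other transcripts, gave 1.51 at day 4 and 1.04 at day 2 against day 0, and read 8.74 in shRp58 cells and 9.04 in control cells (-0.30). It read 9.53 in growth medium and 9.70, 10.74 and 11.21 at days 0, 2 and 4. Which Itgb1 transcript it reads was not analysed here.

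The 4 probe sets of Itgb5 differed most at the step to day 0, where they lay between 0.45 and 1.03 above growth medium, although they stayed within 0.86 to 1.06 at day 2 against day 0. The 0.45 came from the probe set that stands for Itgb5, and the others gave 0.77, 0.96 and 1.03. The names of the probe sets with 0.45 and 0.96 mark probes that can match other transcripts.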
